A study of Mus musculus with 8 samples.

Results

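Notch receptors and the genes they switch on were followed in mouse skin that had lost Adam10, as 10 genes chosen by name out of 19935 genes measured. They comprise the receptors Notch1, Notch2, Notch3 and Notch4, the transcriptional repressors Hes1, Hes5, Hey1, Hey2 and Heyl, and the feedback inhibitor Nrarp. A gene entered when the array annotation gave a probe set exactly 1 symbol and that symbol was one of the 10, and each of the 10 had 1 such probe set. Expression was measured on Affymetrix Mouse Gene 1.0 arrays in 4 Adam10 knockout and 4 Adam10 wild-type samples of mouse skin, 1 array per sample. The labels call the tissue both mouse skin and primary skin cells and give no age, sex or strain. The titles mark the knockouts as cKO, usually short for conditional knockout, with the numbers 67, 68, 69 and 55 after a P, and the wild types with 57, 58, 59 and 60. The promoter that drives the recombinase, the exons removed and the cells that lost them are not stated in the labels.

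Notch receptors are membrane proteins that are cut in turn after a ligand on a neighbouring cell pulls on them. ADAM10 makes the cut outside the membrane, gamma-secretase then frees the intracellular domain, and that domain joins the DNA-binding protein RBPJ in the nucleus to switch on Hes, Hey and Nrarp genes. In the epidermis this signal accompanies the move of keratinocytes out of the basal layer. NOTCH3 is also known as a receptor of mural cells, the smooth muscle cells and pericytes around vessels. A transcript level says nothing of how much receptor was cut.

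Promoter windows are shown for the members that fell and are held in the RefSeq promoter table, Notch3 and Nrarp, beside Hes5 and Hey2, whose windows carry the RBPJ sequence. The table held 7 of the 10 members, on build GRCm38.p6. Hes1, Hey1 and Heyl had no entry there. Each window runs 5′ to 3′ from 250 bases before the annotated start to 50 after it. Capitals mark matches on either strand to the RBPJ core TGGGAA, its longer form GTGGGAA, the E-box CACGTG or the HES repressor sequence CACGCG. The longer RBPJ form contains the core.
Notch3, chr17:32166841-32167140, minus strand: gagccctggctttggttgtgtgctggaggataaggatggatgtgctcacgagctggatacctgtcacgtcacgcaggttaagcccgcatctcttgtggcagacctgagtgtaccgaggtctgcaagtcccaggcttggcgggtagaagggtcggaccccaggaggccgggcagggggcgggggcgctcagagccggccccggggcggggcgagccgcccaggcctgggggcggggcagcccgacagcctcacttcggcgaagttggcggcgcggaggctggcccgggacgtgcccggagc
Nrarp, chr2:25180508-25180807, plus strand: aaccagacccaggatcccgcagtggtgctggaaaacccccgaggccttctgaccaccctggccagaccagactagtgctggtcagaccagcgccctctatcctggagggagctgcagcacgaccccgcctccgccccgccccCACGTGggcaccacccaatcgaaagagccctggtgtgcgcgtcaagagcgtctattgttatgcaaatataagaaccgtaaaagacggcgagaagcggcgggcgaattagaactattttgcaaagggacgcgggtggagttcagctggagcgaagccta
Hes5, chr4:154960673-154960972, plus strand: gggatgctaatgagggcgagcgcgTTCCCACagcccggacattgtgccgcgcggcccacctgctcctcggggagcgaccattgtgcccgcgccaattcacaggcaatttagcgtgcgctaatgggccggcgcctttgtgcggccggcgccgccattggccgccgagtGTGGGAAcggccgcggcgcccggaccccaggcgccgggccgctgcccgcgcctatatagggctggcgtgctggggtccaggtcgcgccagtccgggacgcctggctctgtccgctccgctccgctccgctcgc
Hey2, chr10:30842734-30843033, minus strand: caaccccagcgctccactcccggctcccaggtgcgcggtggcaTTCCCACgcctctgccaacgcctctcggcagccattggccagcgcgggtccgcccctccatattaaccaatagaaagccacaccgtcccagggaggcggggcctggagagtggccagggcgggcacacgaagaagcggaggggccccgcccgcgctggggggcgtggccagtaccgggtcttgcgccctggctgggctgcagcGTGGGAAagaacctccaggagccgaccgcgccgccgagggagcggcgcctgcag

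The Hes5 and Hey2 windows each held the longer RBPJ form on both strands, while the Notch3 and Nrarp windows held neither RBPJ form. Nrarp had an E-box and Notch3 had no match to any of the 4 motifs. Of the other members in the table, Notch2 had the HES sequence, and Notch1 and Notch4 had no match. Among all 32851 windows of the same length, 25.6% held the RBPJ core, 6.38% the longer form, 7.15% the E-box and 9.27% the HES sequence. Such a match describes the letters in these windows and does not show binding.

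Adam10, the deleted gene, had log2 intensities of 6.85, 7.00, 7.04 and 6.79 on knockout arrays 1 to 4, against 7.39, 7.33, 7.06 and 7.34 on wild-type arrays 1 to 4. The groups did not overlap, though knockout array 3 and wild-type array 3 were only 0.02 apart. The mean difference was -0.36 (SE 0.11, exact two-sided permutation p = 0.0286), and limma gave an adjusted p of 0.064. Where the probes lie relative to the deleted exons is not known, so this value checks the labels in direction only.

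Of the 10 Notch members 3 fell in the knockout and 0 rose. These were Notch3, Nrarp and Heyl, and they made up 1 of 4 receptors and 2 of 6 target genes. Over all 19935 genes 2.34% fell and 6.41% rose at the same threshold, an adjusted p under 0.05 in limma. The share of rises among the calls over all genes was 73.2%, 56.5% after quantile normalization and 50.8% after cyclic loess, while 0 members rose under any of these. After quantile normalization 2 members fell, as Heyl missed the threshold (adjusted p = 0.055), and after cyclic loess 3 fell. The median difference was -0.21 over the 10 members and 0.0027 over all genes. The groups did not overlap for the same 3 members, all lower in the knockout. Over all 19935 genes 1168 (5.86%) lay apart in that direction and 2441 in the other. With wild-type arrays 3 and 4, the arrays highest in muscle and dermal markers, both left out, 2 members passed, Notch3 and Nrarp. Notch3 alone passed without wild-type array 2 or 3 or without knockout array 1, 2 or 4. At an unadjusted p under 0.05, 5 members passed, with 25.1% of all genes. The labels do not say that each sample came from a separate animal, so the p-values measure the spread between these samples.

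**Figure D1:**
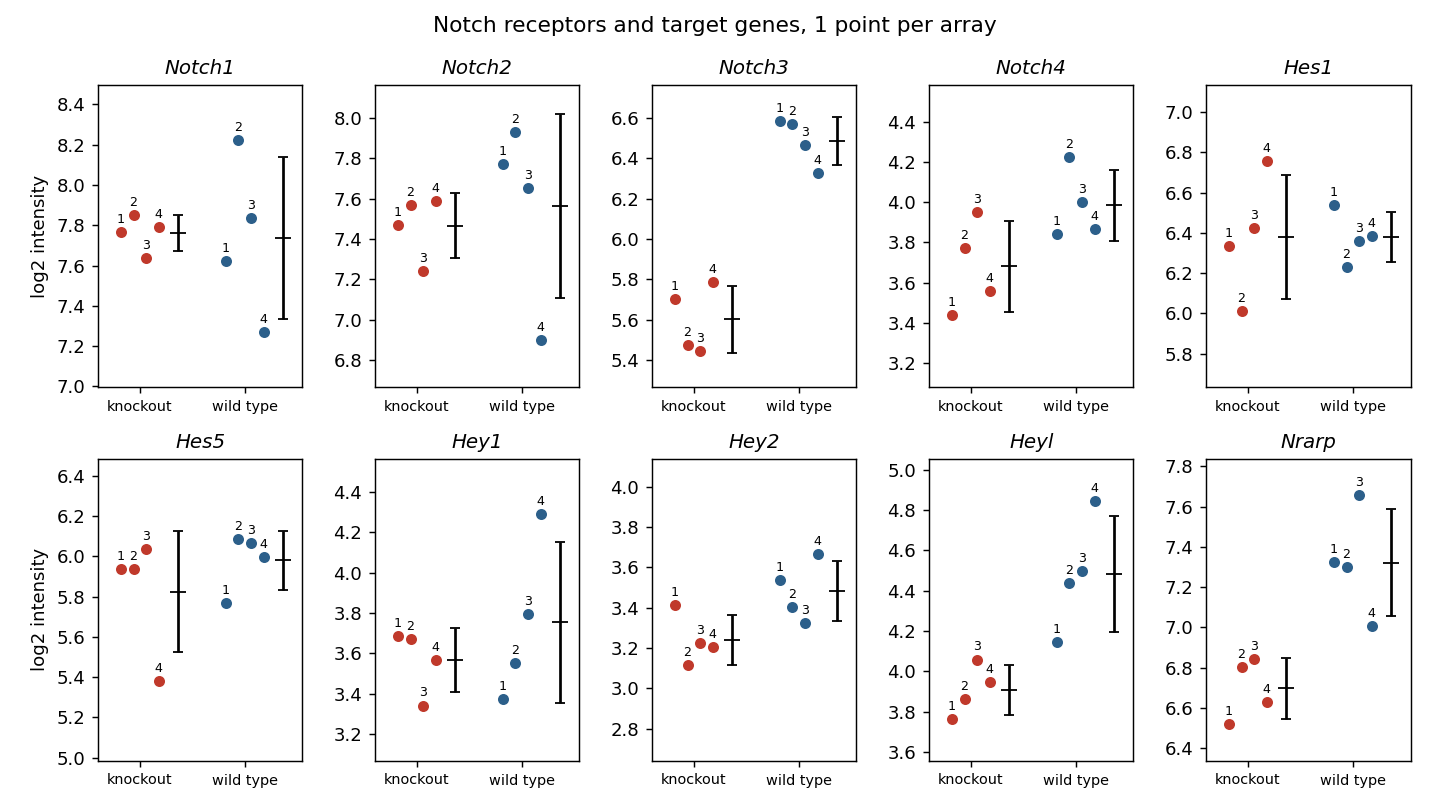
Log2 intensity of the 10 members on each array, knockout at left (red) and wild type at right (blue), with array numbers above the points and the mean ± SD of 4 arrays in black. Every panel spans the same range of log2 units. Notch3, Heyl and Nrarp have all 4 knockout points below all 4 wild-type points, and the other 7 genes overlap.

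Notch3 had the largest difference of the 10 members. Its log2 intensity was 5.70, 5.47, 5.45 and 5.79 on knockout arrays 1 to 4, against 6.58, 6.57, 6.47 and 6.33 on wild-type arrays 1 to 4. The highest knockout value lay 0.54 below the lowest wild-type value, so the gap between groups exceeded the range within either group. The means were 5.60 ± 0.17 in knockout and 6.49 ± 0.12 in wild-type samples (SD, n = 4 each). The difference was -0.89 on the log2 scale (SE 0.11, 95% interval -1.13 to -0.64, adjusted p = 0.0025), which means that the intensity fell by 45.9%. By its p-value Notch3 ranked 83rd of the 19935 genes. It passed in each of 8 fits that left out 1 array, with adjusted p-values between 0.0014 and 0.014.

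The other receptors did not pass. Notch1, the receptor best known for its role in epidermal differentiation, had 7.76, 7.85, 7.64 and 7.79 on the knockout arrays, against 7.62, 8.22, 7.83 and 7.27 on the wild-type arrays. All 4 knockout values lay inside the wild-type range. The difference was 0.02 on the log2 scale (95% interval -0.37 to 0.41, adjusted p = 0.95), and it turned to -0.10 after quantile normalization and -0.13 after cyclic loess. Notch2, which is expressed beside Notch1 in skin epithelium, had 7.47, 7.57, 7.24 and 7.59 on the knockout arrays, against 7.77, 7.93, 7.65 and 6.90 on the wild-type arrays. Wild-type array 4 was lowest of all 8 and the other wild-type arrays were above every knockout array. The difference of -0.10 (95% interval -0.54 to 0.35, adjusted p = 0.80) was -0.32 without wild-type array 4 (adjusted p = 0.12) and -0.46 with the skeletal muscle marker mean as a covariate (adjusted p = 0.054).

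Notch4, a receptor known from blood vessel endothelium, gave dim signals. Its log2 intensity was 3.44, 3.77, 3.95 and 3.56 on the knockout arrays, against 3.84, 4.22, 4.00 and 3.87 on the wild-type arrays. Knockout array 3 reached into the wild-type range. The difference was -0.30 (95% interval -0.60 to -0.0028), with p = 0.048 before and 0.20 after adjustment in limma and an exact permutation p of 0.11. A further 6 probe sets annotated to both Notch4 and Sympk were not used.

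The change of Notch3 was also set against that of each other receptor within the same array, a comparison chosen after the values had been seen. Notch3 minus Notch1 lay between -2.38 and -2.01 in knockout and between -1.65 and -0.94 in wild-type samples. For Notch3 minus Notch2 the ranges were -2.10 to -1.77 in knockout and -1.36 to -0.57 in wild-type samples. For Notch3 minus Notch4 they were 1.49 to 2.26 in knockout and 2.34 to 2.74 in wild-type samples. The groups lay apart in all 3 pairs (exact two-sided permutation p = 0.0286 each, the smallest possible), but the p adjusted over the 11 pairs of members tested was 0.105. As each of the 3 pairs was already at the smallest possible p, its adjusted p depended on how many of the 11 pairs reached that value. The adjusted p therefore could not decide whether Notch3 fell more than the other receptors. The separation of the groups in the 3 pairs is a description of these arrays, for pairs chosen after the values had been seen.

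**Figure D2:**
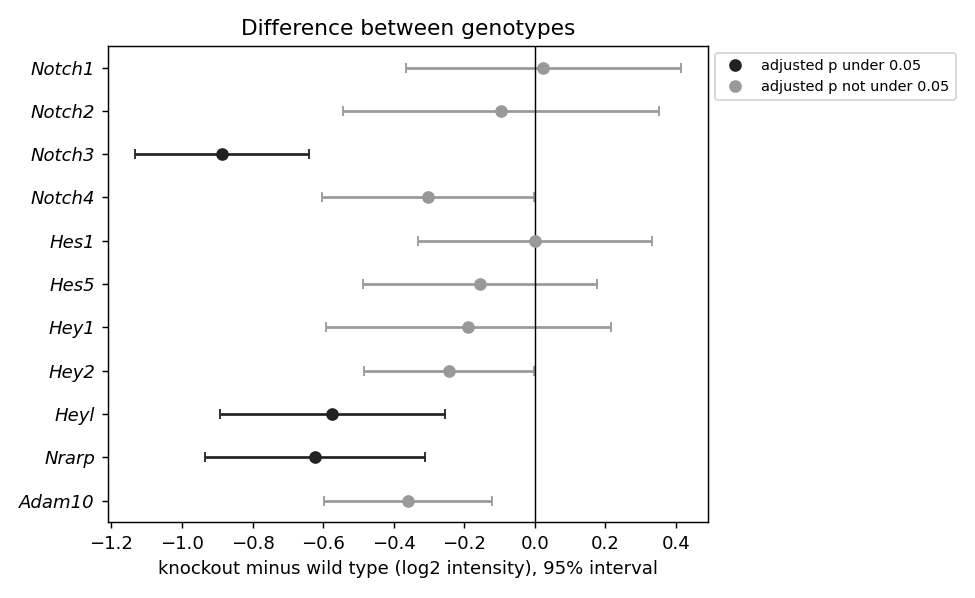
Difference between knockout and wild-type samples on the log2 intensity scale for the 10 members and Adam10, with 95% intervals from limma. Black points have an adjusted p under 0.05 and grey points do not. Notch3, Heyl and Nrarp are black, and Notch1 and Hes1 lie at about 0.

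Among the targets Nrarp had the largest difference. Nrarp encodes an ankyrin-repeat protein that is induced by Notch and dampens its transcription complex. Its log2 intensity was 6.52, 6.81, 6.84 and 6.63 on the knockout arrays, against 7.33, 7.30, 7.66 and 7.01 on the wild-type arrays. The groups did not overlap, and wild-type array 4 came nearest to the knockouts. The difference was -0.62 (SE 0.14, 95% interval -0.94 to -0.31, adjusted p = 0.025), so that the intensity fell by 35.0%. Nrarp missed the threshold without wild-type array 2 or 3 or without knockout array 1, 2 or 4 (adjusted p 0.055 to 0.075), with differences of -0.66 to -0.51.

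Heyl, a repressor of the Hey family found in vascular and muscle tissue, was lower in the knockout as well, and its signal was dim. Its log2 intensity was 3.76, 3.86, 4.06 and 3.95 on the knockout arrays, against 4.15, 4.44, 4.50 and 4.85 on the wild-type arrays. Knockout array 3 and wild-type array 1 were close, and wild-type array 4 stood highest. The difference was -0.57 (SE 0.14, 95% interval -0.89 to -0.25, adjusted p = 0.036), and the intensity fell by 32.8%. The call was lost without wild-type array 2 or 3 and without any of the 4 knockout arrays (adjusted p 0.062 to 0.11). Without both wild-type arrays 3 and 4 the difference was -0.38 (adjusted p = 0.15). With 16 added to each intensity before log2, which shrinks changes of dim genes, it was -0.31 (adjusted p = 0.04995).

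**Figure D3:**
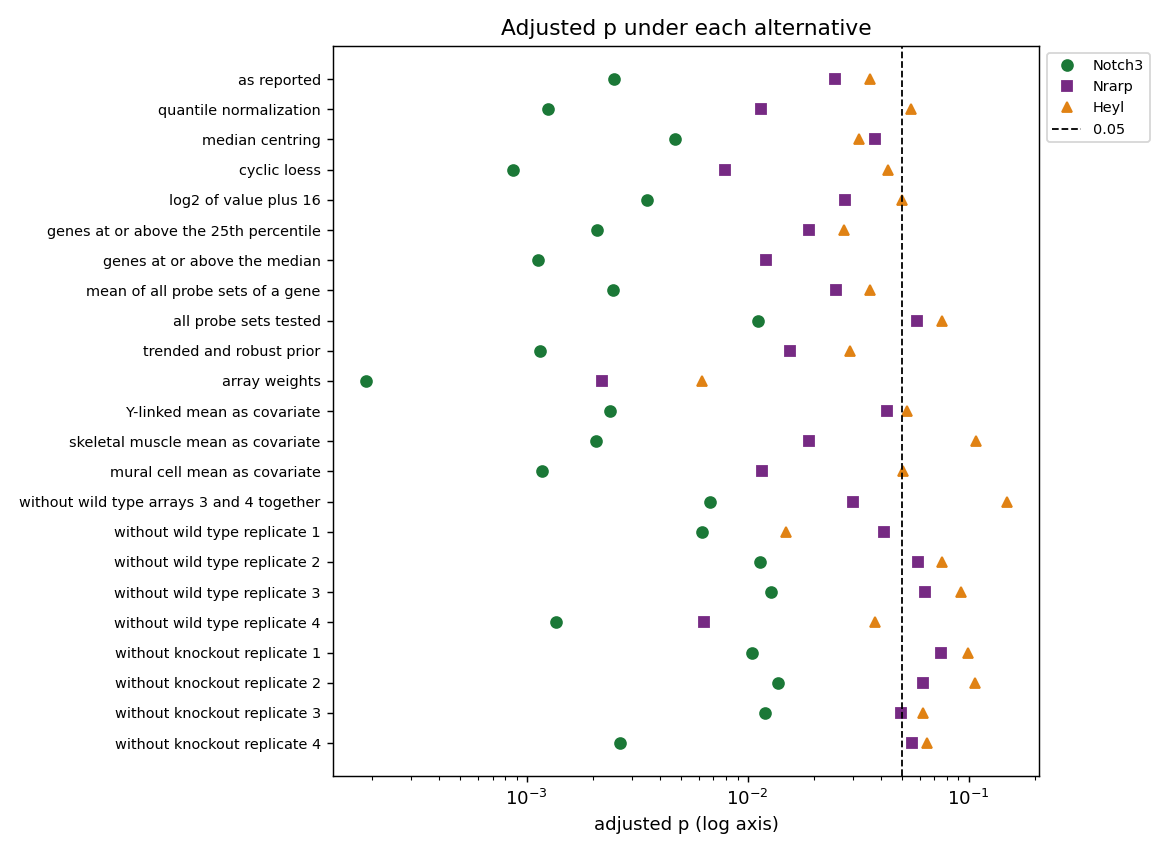
Adjusted p (log axis) of Notch3, Nrarp and Heyl as reported and under each alternative way of processing, with the threshold of 0.05 as a dashed line. Notch3 lies left of the line throughout, between 0.00019 and 0.014, and Nrarp and Heyl cross it. Heyl has no point where only genes at or above the median level were tested.

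Hes1, the repressor most often read as a Notch target in keratinocytes, did not pass. It had 6.33, 6.01, 6.42 and 6.76 on the knockout arrays, against 6.54, 6.23, 6.36 and 6.38 on the wild-type arrays. The lowest and the highest of the 8 values were both from knockouts. The means were 6.38 ± 0.31 in knockout and 6.38 ± 0.13 in wild-type samples, and the 95% interval of the difference ran from -0.33 to 0.33. The difference of 0.0019 turned to -0.11 after quantile normalization and -0.15 after cyclic loess, again without passing (adjusted p = 0.70 and 0.60).

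Hes5, a relative of Hes1, was at 5.94, 5.94, 6.04 and 5.38 on the knockout arrays, against 5.77, 6.09, 6.06 and 5.999 on the wild-type arrays. Knockout array 4 stood below all others, and the remaining knockouts lay within the wild-type range. The difference was -0.16 (95% interval -0.49 to 0.18, adjusted p = 0.56), and -0.0077 without knockout array 4.

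Hey1 and Hey2 are repressors that act downstream of Notch in vessels and heart, and both gave dim signals. Hey1 had 3.69, 3.67, 3.34 and 3.56 on the knockout arrays, against 3.37, 3.55, 3.80 and 4.29 on the wild-type arrays. Its wild-type values spread over a wider range than the knockout values, and the difference was -0.19 (95% interval -0.59 to 0.22, adjusted p = 0.56). Without wild-type arrays 3 and 4 the sign turned, to 0.10. Hey2 had 3.41, 3.12, 3.23 and 3.20 on the knockout arrays, against 3.54, 3.40, 3.32 and 3.66 on the wild-type arrays. Knockout array 1 reached into the wild-type range. The difference was -0.24 (95% interval -0.48 to -0.0012), with p = 0.049 before and 0.20 after adjustment in limma and an exact permutation p of 0.086.

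Nrarp and Heyl were set against Hes1, Hes5, Hey1 and Hey2 within each array, in the other 8 of the 11 pairs. These pairs set the targets that passed against those that did not, so the sign of each difference followed from that choice. All 8 differences were below 0, from -0.62 for Nrarp minus Hes1 to -0.33 for Heyl minus Hey2. The groups overlapped in each of them, with exact two-sided permutation p-values of 0.086 to 0.23. Nrarp and Heyl therefore were not shown to have changed differently from the 4 repressors that missed the threshold.

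The arrays also differed in the levels of cell type markers, and values of those markers are given here because several members are expressed outside the epidermis. Keratins of the epidermis were present in all samples. Krt14, a keratin of the basal layer, averaged 12.01 in knockout and 11.38 in wild-type samples, and Krt10, a keratin of the layers above it, 12.28 in knockout and 12.45 in wild-type samples (log2 intensity). Wild-type array 4 stood apart, at 61.18 on principal component 1 where the other 7 ran from -24.91 to 17.52. Its skeletal muscle markers averaged 7.70, against 5.59 on wild-type array 3 and 4.20 to 4.55 on the other arrays. Its dermal fibroblast markers averaged 9.25, against 7.63 on wild-type array 3 and 5.89 to 6.05 on the others. In bulk samples fewer cells of a type and less RNA per cell cannot be told apart.

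Of 10 mural cell markers measured 1 rose and 0 fell, while 8 lay lower in the knockout samples without passing, and the median difference was -0.53. Over all 19935 genes 6.41% rose, 2.34% fell and 49.6% lay lower, and 5.86% had all knockout values below all wild-type values. Mcam, an adhesion molecule, was the one that rose (difference 0.70, adjusted p = 0.0072). Pdgfrb, a growth factor receptor of pericytes, was the 1 marker with all knockout values below all wild-type values, at 2.99, 3.11, 3.20 and 2.86 on the knockout arrays, against 3.24, 3.54, 3.67 and 4.67 on the wild-type arrays. The difference of Pdgfrb was -0.74 (adjusted p = 0.10). The summed intensity of the 10 was 379 to 453 on the knockout arrays, against 289 to 773 on the wild-type arrays. Without Mcam, left out after its values were seen, it was 138 to 148 on the knockout arrays, against 135 to 583 on the wild-type arrays.

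The mean log2 level of the 10 mural markers was 4.12, 4.17, 4.16 and 4.10 on knockout arrays 1 to 4, against 4.06, 4.18, 4.47 and 5.47 on wild-type arrays 1 to 4. Without Mcam the mean was 3.70, 3.71, 3.71 and 3.65 on the knockout arrays, against 3.70, 3.83, 4.12 and 5.24 on the wild-type arrays. Without wild-type arrays 3 and 4 the difference of Notch3 was -0.98 (adjusted p = 0.0067). With the mural mean as a covariate it was -0.97 (adjusted p = 0.0012). Nrarp differed by -0.72 (adjusted p = 0.012) with the mural mean as a covariate and by -0.73 (adjusted p = 0.019) with the skeletal muscle mean. Heyl differed by -0.40 (adjusted p = 0.051) with the mural mean and by -0.35 (adjusted p = 0.11) with the muscle mean. The mural mean in these fits included Mcam, and both marker means varied mainly among the wild-type arrays. The part of mural or muscle cells in these differences was not tested.

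Endothelial markers (10 measured, 0 called) summed to 115 to 136 on the knockout arrays, against 116 to 551 on the wild-type arrays. Skeletal muscle markers (10 measured, 0 called) summed to 216 to 261 on the knockout arrays, against 263 to 6397 on the wild-type arrays. In both lists the knockout arrays spanned a narrow range and the wild-type arrays a wide one.

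**Figure D4:**
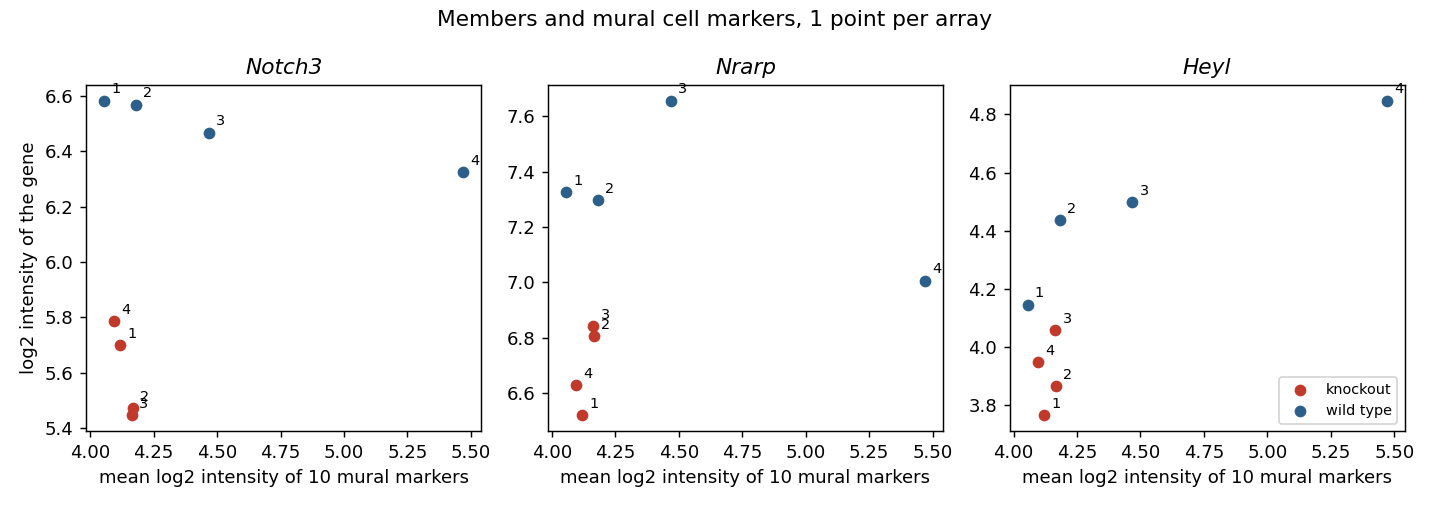
Log2 intensity of Notch3, Nrarp and Heyl (vertical) against the mean log2 intensity of 10 mural cell markers (horizontal), 1 point per array with its number, knockout in red and wild type in blue. The vertical range differs between panels. The 4 wild-type arrays lie above the 4 knockouts in each panel, and wild-type array 4 lies far to the right at 5.47. The mural mean includes Mcam, which rose in the knockout.

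Other marker lists also held calls, where over all genes 6.41% rose and 2.34% fell at the same threshold. All 7 basal keratinocyte markers rose, with summed intensities of 10364 to 12051 on the knockout arrays, against 6138 to 8204 on the wild-type arrays. Of 7 markers of the outer root sheath and of hair follicle stem cells 5 rose, with sums of 4606 to 5054 on the knockout arrays, against 2936 to 3755 on the wild-type arrays. Cd34 of this list went the other way without passing (difference -1.81, adjusted p = 0.16), with all knockout values below all wild-type values. Of 5 melanocyte markers 2 rose, but the sums overlapped between the groups, at 467 to 778 on the knockout arrays and 304 to 473 on the wild-type arrays. Of 8 macrophage markers 5 fell, with sums of 180.0 to 249 on the knockout arrays, against 367 to 643 on the wild-type arrays. Their part in the falls of Notch3, Nrarp and Heyl was not tested.

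Genes outside the family with the most similar profiles were sought for the 3 members that fell, by the root-mean-square distance between log2 values centred over the 8 arrays, among 9962 genes at or above the median level. The distances are descriptions and the genotype difference is part of each profile. Nearest to Notch3 were Gcat, a mitochondrial enzyme of threonine breakdown (distance 0.079), Agpat3, a lipid acyltransferase (0.082), and Slc16a6, a monocarboxylate transporter (0.091). Nearest to Nrarp were Ssx2ip (0.11), Ppfia4 (0.12) and Eef2k (0.14), and nearest to Heyl were Mfsd12 (0.093), Snx8 (0.096) and Atp6v0a2 (0.098). For scale, the root-mean-square deviation of the member from its own mean was 0.46 for Notch3, 0.36 for Nrarp and 0.35 for Heyl.

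The rest of the pathway was read from 7 lists that hold 71 genes, of which 66 were measured. Of the 66, 8 rose and 2 fell, against 6.41% and 2.34% of all genes, and the median difference was 0.13. With only genes at or above the median level tested, 9 of 54 rose and 2 fell, against 1835 and 511 of 9968 genes. By these counts the lists did not stand out from genes of similar brightness. The median difference of those 9968 genes was 0.11, but the 0.13 covers all 66 list genes, dimmer ones included, so these medians do not cover like sets. The split among the 66 was 6 to 2 after quantile normalization and 5 to 3 after cyclic loess. Without wild-type arrays 3 and 4, 6 rose and 1 fell, and without wild-type array 3 or knockout array 2 or 3 alone 5 rose and 1 fell. Ligands of the neighbouring cell gave 3 rises and 0 falls among 8. Dlk2, a non-canonical ligand-like protein, averaged 6.98 ± 0.29 in knockout and 5.85 ± 0.16 in wild-type samples (SD, n = 4 each, log2 intensity), a difference of 1.13 (adjusted p = 0.0030). The ligand Dll1 rose by 0.95 (adjusted p = 0.0056). Jag2, another ligand, rose by 0.91 (adjusted p = 0.0096) and is named after its value was seen.

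Among 5 enzymes that attach sugars to the receptor 1 rose, Lfng, the lunatic fringe glycosyltransferase, by 0.99 (adjusted p = 0.0043). Among 8 cleavage proteases 0 rose and 1 fell, Aph1b, a gamma-secretase subunit, at 5.48 ± 0.11 in knockout and 6.12 ± 0.07 in wild-type samples (difference -0.63, adjusted p = 0.0046). Mice carry a close paralogue of Aph1b, Aph1c, so its probe set may not tell the 2 apart. Among 13 trafficking proteins and ubiquitin ligases 0 passed in limma, with 2 at an unadjusted p under 0.05, and Itch, a ubiquitin ligase that acts on Notch, had the smallest p (difference 0.29, adjusted p = 0.16). Of 16 nuclear cofactors the corepressor Ctbp1 rose by 0.36 (adjusted p = 0.037) and 0 fell. Rbpj, the gene of the DNA-binding partner of Notch, averaged 6.63 ± 0.12 in knockout and 6.52 ± 0.06 in wild-type samples and did not pass (adjusted p = 0.51).

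Of 7 other relatives of the Hes family 1 fell, Hes3, at 3.52 ± 0.13 in knockout and 3.93 ± 0.11 in wild-type samples (difference -0.41, adjusted p = 0.034). The Hes3 signal was dim. Of 9 measured keratinocyte genes linked to Notch in earlier work 3 rose and 0 fell. Tslp, a cytokine of stressed keratinocytes, averaged 6.58 ± 0.56 in knockout and 1.60 ± 0.27 in wild-type samples (adjusted p = 3.1e-05), the wild-type level being among the dimmest of its arrays. Ccnd1, the cell cycle gene of cyclin D, rose by 0.72 (adjusted p = 0.017). Wnt4, a Wnt ligand that Notch is known to repress in keratinocytes, rose by 0.48 (adjusted p = 0.037) and is named after its value was seen. The differentiation keratin Krt1 did not pass (difference -0.07, adjusted p = 0.69).

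**Figure D5:**
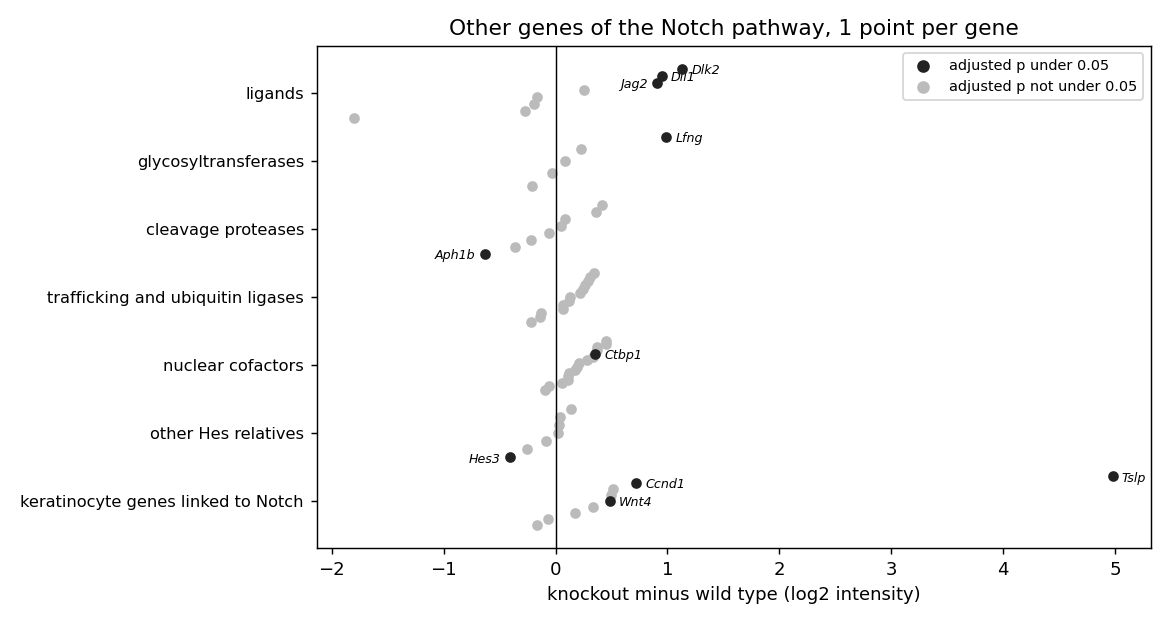
Difference between knockout and wild-type samples on the log2 intensity scale for the 66 other pathway genes, 1 point per gene, in 7 lists. Black named points have an adjusted p under 0.05. The ligands Dlk2, Dll1 and Jag2 and the glycosyltransferase Lfng lie to the right at 0.91 to 1.13, and Aph1b and Hes3 to the left.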

How the data were processed

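The deposited values are intensities, 1 for each probe set on each array. Per the submitters' processing notes the authors used RMA, which corrects background, equalises the arrays and summarises probes. Its version and settings are not stated in the labels. The intensities ran from 0.817 to 11173, so they were read as linear, and log2 was taken without a pseudocount. Arrays give no depth, and their number limits the precision. No detection calls or scan dates were used.

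Of 35519 probe sets 21780 carried exactly 1 symbol, 1605 several and 12134 none. Of the 21780, 21689 matched RefSeq (GRCm38.p6) by Entrez identifier and 0 symbols changed. The brightest probe set per gene was kept, which left 19935 genes. The genotypes were compared by limma 3.58.1 under R 4.3.3 (two-sided, eBayes defaults), with Benjamini-Hochberg adjustment over all 19935 genes at 0.05. Intervals are 95%. Single members and pairs were also tested by exact permutation over the 70 assignments of the arrays, with smallest p = 0.0286. On simulated data with 200 of 19935 genes changed, the fit called 34% of those set to a log2 difference of 0.5, 82% at 1, and 100% at 2 and at 3. Of its 167 calls 9 were false. The simulation changed far fewer genes than the 1744 called in the data, so its shares need not hold for this comparison.

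Array numbers follow the order of accession and pair nothing. The members and lists were chosen with earlier results of these data known. The genes named are the members, Adam10, up to 2 rises and 2 falls per pathway list by p (or the smallest p where none passed), and the 3 nearest profiles of each member that fell. Jag2, Wnt4, Mcam, Pdgfrb, Cd34, Rbpj, Krt1, Krt10 and Krt14 were named besides, after their values were seen. Alternatives covered scaling, filters, probe sets, the prior, weights, covariates, thresholds and left-out arrays. Some genes of the pathway lists are not reported here.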

Additional observations from a re-analysis of the deposited data

Results flagged for a closer look

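Among the 22 groups of 4 arrays examined (10 members and Adam10, each in both genotypes), 2 held an array far from the other 3, where chance flags about 1 group in 20. Hes5 was at 5.38 on knockout array 4, against 5.94 to 6.04 on the other knockout arrays, a gap of 0.849 of the range. Adam10 was at 7.06 on wild-type array 3, against 7.33 to 7.39 on the other wild-type arrays, a gap of 0.831 of the range.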

How the results depend on the processing

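Under 24 alternatives Notch3 kept its direction and its call in every one, with differences of -1.02 to -0.71. Nrarp kept its direction in all 24 and lost its call in 7, and Heyl kept its direction in the 23 that tested it and lost its call in 13. The 3 calls fell to 1 when all probe sets were tested and at a threshold of 0.01, and ran from 1 to 3 with 1 array left out. They were 2 after quantile normalization and with the Y-linked, skeletal muscle or mural mean as a covariate. Calls in the pathway lists, 10 as reported, were 6 at a threshold of 0.01 and 6 to 10 with 1 array left out. By exact permutation, without adjustment, 3 members passed, and 1 to 4 with 1 array left out. With 4 arrays per group a gene passes this test only when its groups do not overlap. The 3 therefore restate the non-overlap count and are not separate evidence for the limma calls. Over all 19935 genes 1168 lay apart with the knockout lower and 2441 with it higher. The permutation test was not run without wild-type arrays 3 and 4 together, where it cannot reach 0.05. The difference of Adam10 passed at -0.49 after quantile normalization, -0.52 after cyclic loess, -0.32 with 16 added, and -0.36 with either filter on dim genes, a trended and robust prior or a threshold of 0.10. With 1 array left out it was -0.43 to -0.32 and did not pass.

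Notch1 turned to -0.10 (quantile), -0.13 (cyclic loess), -0.075 (array weights), -0.22 (muscle covariate), -0.16 (mural covariate) and -0.16 (without wild-type arrays 3 and 4), and ran from -0.13 to 0.19 with 1 array left out. Hes1 turned to -0.11 (quantile), -0.15 (cyclic loess), -0.063 (array weights), -0.062 (Y-linked covariate), -0.013 (mural covariate) and -0.0052 (without wild-type arrays 3 and 4), and ran from -0.12 to 0.13 with 1 array left out. Notch2 ran from -0.32 to 0.026 with 1 array left out, and was -0.46 (muscle covariate, adjusted p = 0.054), -0.38 (mural covariate, adjusted p = 0.073) and -0.38 (without wild-type arrays 3 and 4, adjusted p = 0.15). Hey1 turned to 0.12 (muscle covariate), 0.059 (mural covariate) and 0.10 (without wild-type arrays 3 and 4). None of these passed, and the cause was not tested. Calls over all genes, 1744 as reported, were 1099 over all probe sets, 3621 with array weights, 925 without wild-type arrays 3 and 4, 478 and 2958 at thresholds of 0.01 and 0.10, and 587 to 1997 with 1 array left out. No paired analysis was possible because the titles give the groups different numbers.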
